A study of Drosophila melanogaster with 2 samples.

Results

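The Rab GTPase genes of Drosophila melanogaster were followed in a map of where the CG15710 protein sat on chromatin. They were taken from the Ensembl BDGP6 annotation as the protein-coding genes whose symbol is Rab or RabX with a number, and 33 of 13945 protein-coding genes met that rule. Rab3-GAP, Rab3-GEF and Rab3GAP1 share the start of the name but encode regulators of Rab proteins and were placed among those. The material was whole pupae at an age of 24 hours, both sexes pooled, from a transgenic line that carries CG15710 fused at its C-terminus to GFP. Chromatin was sonicated and precipitated with an antibody to GFP before sequencing (ChIP-seq). The animals formed a single group of 2 biological replicates, which the labels number 1 and 3, so no condition can be set against another. The labels give neither the promoter nor the dose of the transgene, and a possible control experiment that they name was not analysed here. All values come from whole animals, so a site occupied in fewer cells and a site occupied less strongly per cell cannot be told apart.

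Rab proteins are small GTPases that sit on the membranes of the secretory and endocytic routes and give each compartment its identity. A Rab is switched on by a guanine nucleotide exchange factor (GEF), recruits effectors that move, tether or fuse vesicles, and is switched off by a GTPase-activating protein (GAP). Prenyl groups anchor it in the membrane, and a carrier protein takes it off again. Some Rabs serve nearly every cell, such as Rab5 on early endosomes, while others serve regulated secretion, such as Rab3 on synaptic vesicles.

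The 4 deposited peak lists were read by the summit of each peak. A summit within 500 bp of a transcription start site (TSS) of a gene counted as a promoter summit of that gene. The list that passed the irreproducible discovery rate step (the IDR list) held 8483 peaks, which were exactly the 8483 of highest signal among the 30000 pooled peaks, with 159.0 as the lowest signal. The signal is the authors' value for each peak. Its scale is not given in these sources, so it is compared only within a list. No read counts were given, so the depth behind each peak is unknown.

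Of the 33 Rab genes, 8 carried a promoter summit of the IDR list: Rab5, Rab39, Rab11, Rab8, Rab14, Rab7, Rab35 and Rab2. The sequences under 9 IDR summits of these genes are shown for their base composition and for the short words they hold. Each is the 101 bases centred on the summit, 5′ to 3′ on the strand of the gene, from the RefSeq copy of the dm6 assembly. Capitals mark the words that were searched (named further on with the motif counts).

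Rab5 intron, chr2L:2363703-2363803 minus strand: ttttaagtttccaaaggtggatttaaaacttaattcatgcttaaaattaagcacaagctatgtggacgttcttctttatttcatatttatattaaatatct
Rab39 upstream, chrX:7734556-7734656 plus strand: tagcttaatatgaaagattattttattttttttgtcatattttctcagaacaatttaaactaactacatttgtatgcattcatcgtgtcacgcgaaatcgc
Rab14 intron, chr2L:14355699-14355799 plus strand: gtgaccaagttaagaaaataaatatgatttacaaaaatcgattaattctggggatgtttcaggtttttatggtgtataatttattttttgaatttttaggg
Rab11 upstream, chr3R:21111132-21111232 plus strand: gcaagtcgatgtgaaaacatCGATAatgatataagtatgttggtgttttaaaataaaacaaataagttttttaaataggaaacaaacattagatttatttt
Rab8 start, chr3L:19871017-19871117 minus strand: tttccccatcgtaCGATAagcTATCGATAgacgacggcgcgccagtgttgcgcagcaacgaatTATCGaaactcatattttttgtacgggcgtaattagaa
Rab7 upstream, chr3R:23992893-23992993 plus strand: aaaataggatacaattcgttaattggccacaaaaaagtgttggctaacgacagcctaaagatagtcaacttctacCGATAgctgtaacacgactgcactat
Rab14 start, chr2L:14355129-14355229 plus strand: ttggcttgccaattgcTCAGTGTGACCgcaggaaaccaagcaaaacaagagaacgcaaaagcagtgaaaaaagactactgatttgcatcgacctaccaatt
Rab35 upstream, chrX:20159939-20160039 minus strand: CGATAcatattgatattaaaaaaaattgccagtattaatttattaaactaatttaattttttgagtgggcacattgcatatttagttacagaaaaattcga
Rab35 leader, chrX:20159071-20159171 minus strand: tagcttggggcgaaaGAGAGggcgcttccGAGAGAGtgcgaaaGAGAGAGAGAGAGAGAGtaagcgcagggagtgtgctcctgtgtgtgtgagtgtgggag

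The sites at Rab5, Rab39, Rab11 and Rab35 lay in AT-rich sequence. The G and C content of these 101 bases was 24.8% at the Rab5 summit, 27.7% at the stronger Rab39 summit, 22.8% at Rab11 and 22.8% at the Rab35 promoter. It was 25.7% at the intron summit of Rab14. The Rab8, Rab14 and Rab7 promoter summits were less AT-rich, at 45.5%, 43.6% and 38.6%. Not printed were the Rab2 promoter summit, at 51.5%, and the weaker Rab39 summit, at 24.8%. The second Rab35 site, inside the transcribed leader, stood apart with 57.4% and a run of GAGAG words. Over all 9 promoter IDR summits of Rab genes, printed or not, the median was 27.7% (range 22.8% to 51.5%). It was 30.7% over the 3916 gene and summit pairs of all protein-coding genes.

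As a family the Rab genes held promoter IDR summits about as often as other genes. The count of 8 of 33 is 24.2% (95% exact Clopper-Pearson interval 11.1 to 42.3, which covers counting error only), against 24.6% of all protein-coding genes. In the pooled list, which reaches weaker peaks, 22 of the 33 (66.7%, 48.2 to 82.0) had a pooled promoter summit, against 47.0% of all genes. The strongest promoter IDR summit had a median signal of 222.8 over the 8 Rab genes and 369.0 over the 3426 protein-coding genes that had one. When the IDR list was cut to its 4241 strongest peaks, 2 of the 33 Rab genes were left, Rab5 and Rab39. Of all 13945 protein-coding genes, 1892 (13.6%) were left. No such difference was tested, since genes are not replicates and there is 1 group of animals.

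**Figure D1:**
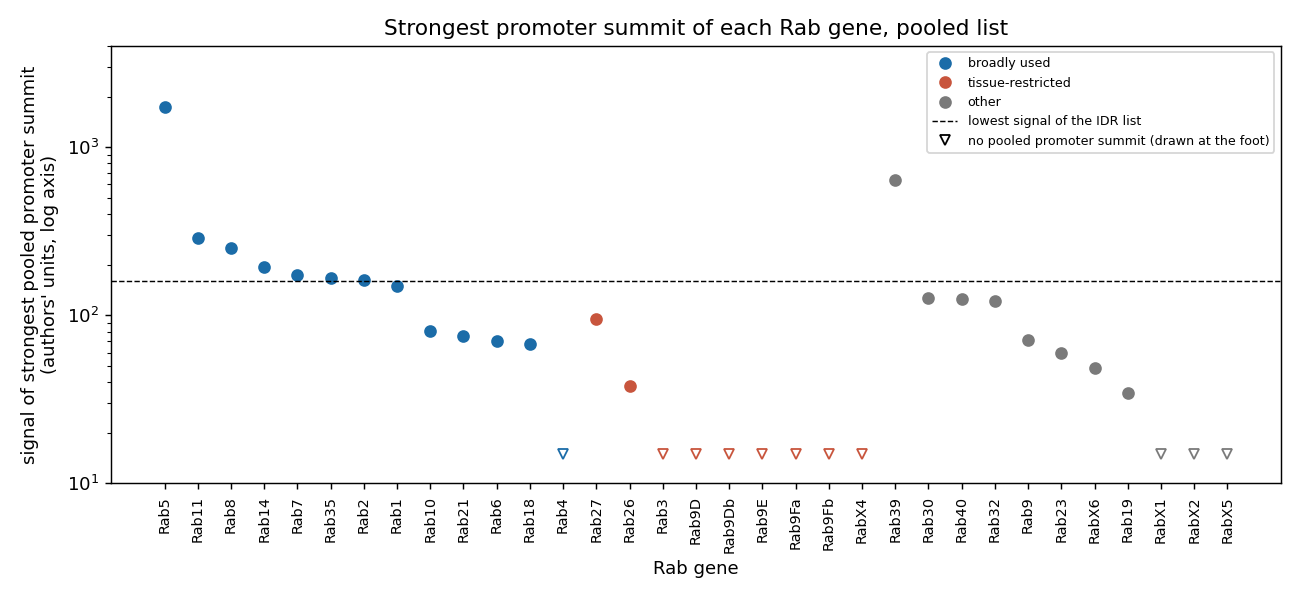
Signal of the strongest pooled promoter summit (authors' units, log axis) for each of the 33 Rab genes, grouped as broadly used, tissue-restricted and other; the dashed line is the lowest signal of the IDR list (159.0), and triangles at the foot mark genes with no pooled promoter summit. Rab5 (1737) and Rab39 (642.0) stand well above the line, and the other 6 genes above it lie between 162.8 and 287.7.

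Rab5 (FBgn0014010), the Rab of early endosomes, had the strongest site of the family, with a signal of 1737 and rank 389 in the IDR list (chr2L:2363560-2363953, dm6). The same summit had a signal of 1133 (rank 337) in replicate 1 and 601.3 (rank 519) in replicate 3, so both libraries placed it near the top of their lists. The gene has 6 annotated TSSs, and this summit lay at -249 bp from an internal one (negative is upstream), in an intron of the longer transcripts. The other pooled summits near Rab5 starts had signals of 38.4 to 90.8, all below the IDR list.

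Rab11 (FBgn0015790), which marks recycling endosomes, carried 2 IDR sites. The promoter summit lay at -226 bp with a signal of 287.7 and rank 4875 (chr3R:21110982-21111381). It had 144.0 in replicate 1 (rank 5979) and 151.9 in replicate 3 (rank 3728). The intron summit, 1828 bp downstream of the start, had 324.0 and rank 4312 (chr3R:21113098-21113313). It had 208.8 (rank 4129) in replicate 1 and 118.2 (rank 4840) in replicate 3, so the replicates differ in which of the 2 sites was the higher.

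Rab7 (FBgn0015795), the Rab of late endosomes and lysosomes, had a promoter summit with a signal of 173.4 and rank 7837 (chr3R:23992743-23993142). The nearest summits were 96.5 in replicate 1 (rank 8777) and 75.0 in replicate 3 (rank 7301). The summit lay at -65 bp from Rab7 and -27 bp from its neighbour Epp, so it is nearer to the neighbour. A further pooled summit at an internal Rab7 start had a signal of 143.9 and did not pass.

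Rab14 (FBgn0015791), which acts between endosomes and the Golgi, had the strongest intron site of the family. That summit lay 604 bp downstream of a TSS with a signal of 713.6 and rank 1736 (chr2L:14355597-14355924), and had 429.6 (rank 1757) in replicate 1 and 285.8 (rank 1714) in replicate 3. The ranks were close in both libraries. The promoter summit of Rab14, at 34 bp downstream of the start in the 5′ UTR, was weaker at 192.5 and rank 7132 (chr2L:14355081-14355181) and uneven between libraries, with 165.9 (rank 5181) in replicate 1 and 41.1 (rank 12169) in replicate 3. It lay at -94 bp from the neighbouring gene l(2)34Fd.

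Rab35 (FBgn0031090), a Rab of endocytic recycling, had a promoter summit at -117 bp with a signal of 165.7 and rank 8200 (chrX:20159789-20160188). It had 97.6 (rank 8713) in replicate 1 and 69.7 (rank 7820) in replicate 3. Its second IDR site, 751 bp downstream in the 5′ UTR, had 214.3 and rank 6452 (chrX:20158921-20159320), with 173.9 (rank 4941) in replicate 1 and 52.5 (rank 9991) in replicate 3. The GAGAG run printed for Rab35 is at this second site.

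Among the secretory Rabs, Rab8 and Rab2 passed. Rab8 (FBgn0262518), which acts in polarised secretion, had its summit 11 bp downstream of its start and at -72 bp from Usp32, a gene named for a ubiquitin-specific protease. The signal was 253.0 at rank 5524 (chr3L:19871009-19871177), with 136.8 (rank 6307) in replicate 1 and 112.1 (rank 5066) in replicate 3. Rab2 (FBgn0014009), which acts in Golgi and late endosomal transport, passed narrowly with 162.8 at rank 8313 (chr2R:6696488-6696887). The summit lay at -51 bp from Rab2 and -27 bp from Mob4. Replicate 3 had a summit there of 83.4 (rank 6637), whereas in replicate 1 the nearest summit of any strength was 11450 bp away. Of the 8 genes, Rab2 was the 1 whose promoter summit had no counterpart in a replicate list.

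Rab39 (FBgn0029959) was the strongest site outside the core endosomal and secretory Rabs. Its promoter held 2 IDR summits at -317 and -116 bp from the TSS. The first had a signal of 642.0 and rank 1985 (chrX:7734400-7734765), with 380.6 (rank 2058) in replicate 1 and 265.2 (rank 1886) in replicate 3. The second had 166.6 and rank 8157 (chrX:7734703-7734838), with 121.7 (rank 7044) in replicate 1 and 18.2 (rank 24456) in replicate 3, so the libraries differ on it far more than on the first. The first summit lay 45 bp inside the 5′ UTR of Pdp, a gene named for a pyruvate dehydrogenase phosphatase. It counts for both promoters but is nearer to the start of Pdp.

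**Figure D2:**
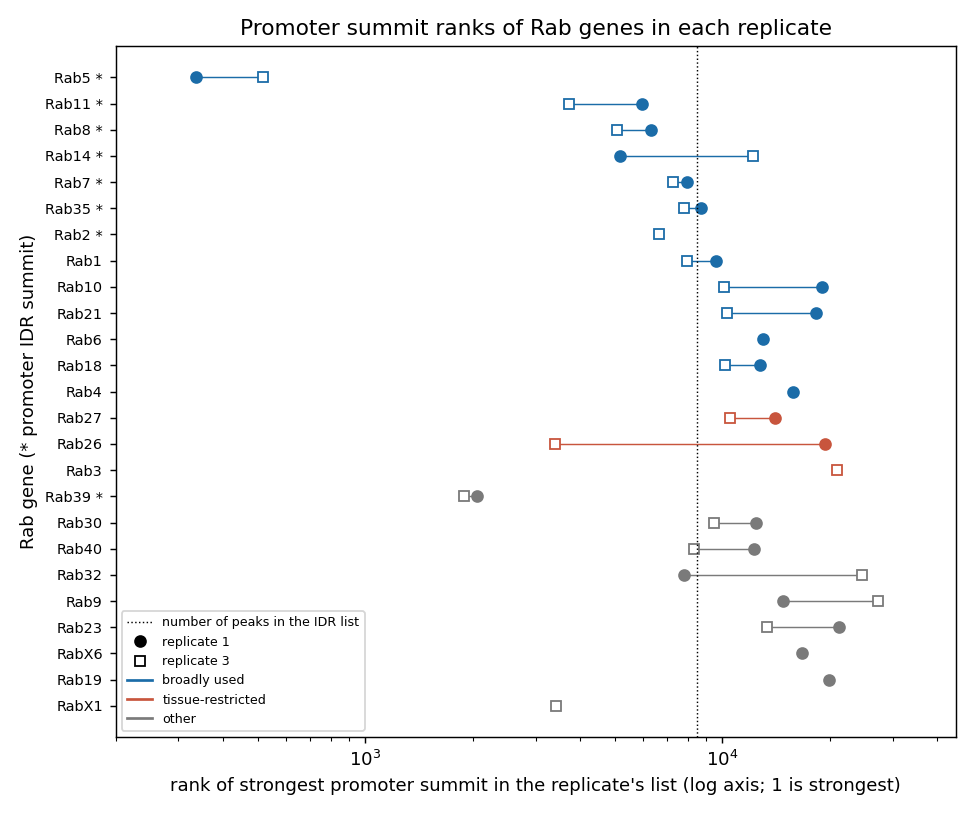
Rank of the strongest promoter summit in each replicate's own list (log axis) for the 25 Rab genes with one in at least 1 replicate; filled circles are replicate 1, open squares replicate 3, and the dotted line is the 8483 peaks of the IDR list. Rab5 and Rab39 lie far to the left in both replicates, and Rab26 and RabX1 lie to the left in replicate 3 only. The ranks of a gene in the replicates can belong to different summits.

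Several Rabs lay just below the list. Rab1 (FBgn0285937), the Rab of transport from the endoplasmic reticulum to the Golgi, had a pooled promoter summit of 149.8 at rank 8918, at -70 bp from its start. The strongest promoter summits of Rab1 were 87.2 (rank 9605) in replicate 1 and 68.4 (rank 7968) in replicate 3. Rab2 with 162.8 and Rab35 with 165.7 were the nearest above the limit of 159.0, and Rab30 with 127.4 and Rab40 with 125.2 came next below Rab1. The Rab30 summit also lay within 500 bp of the start of Caper (-49 bp).

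The other members with a weaker pooled promoter summit were spread from 34.3 to 122.0. They were Rab32 (122.0), known for pigment granules, Rab27 (95.2), Rab10 (80.5), Rab21 (75.0), Rab9 (71.0), Rab6 (70.8), Rab18 (67.3), Rab23 (60.1), RabX6 (48.5), Rab26 (38.0) and Rab19 (34.3). Rab32 had no promoter IDR summit but carried 2 IDR summits in introns. These had signals of 330.1 (rank 4231, at -2181 bp from an internal start; chr2R:9183550-9183739) and 222.3 (rank 6255, 1695 bp downstream; chr2R:9184447-9184846). The stronger had 224.4 (rank 3820) in replicate 1 and 107.9 (rank 5249) in replicate 3, and the weaker 124.1 in replicate 1 and 99.2 in replicate 3. By annotation, the stronger summit also lay in a noncoding exon of another gene. The Rab27 promoter summit lay at -79 bp from Rab27 and -10 bp from mei-38. With Rab11, Rab14 and Rab35, Rab32 made up the 4 of 33 Rab genes (12.1%, 3.40 to 28.2) with an IDR summit elsewhere in the gene, against 10.9% of all protein-coding genes. In the pooled list 14 of 33 (42.4%) had one, against 21.6% of all genes.

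The other 11 members had no pooled promoter summit: Rab3, Rab4, Rab9D, Rab9Db, Rab9E, Rab9Fa, Rab9Fb, RabX1, RabX2, RabX4 and RabX5. Of these, Rab4 had a promoter summit of 47.8 in replicate 1 only, and Rab3 (21.5) and RabX1 (163.6) had one in replicate 3 only. The remaining 8 had none in either replicate. For RabX4 the nearest pooled summit was 14293 bp from its start, and for RabX5 it was 1374 bp away.

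The replicates gave like counts. A promoter summit was found at 22 of 33 Rab genes in replicate 1 (66.7%, against 48.2% of all genes) and at 21 in replicate 3 (63.6%, against 46.6%). Of these, 18 genes had one in both, 4 in replicate 1 only and 3 in replicate 3 only. Summits elsewhere in the gene were found at 12 Rab genes in replicate 1 (36.4%, against 22.0% of all genes) and 15 in replicate 3 (45.5%, against 23.8%). Across the 18 genes the strongest promoter signals of the replicates had a Spearman correlation of 0.47, and across the 5500 protein-coding genes with both it was 0.87. These are correlations across genes, which are not independent replicates.

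Of the 8 Rab genes with a promoter IDR summit, 7 were broadly used. The members were grouped from background knowledge, since the files hold no expression. The classes were 13 broadly used (Rab1, Rab2, Rab4, Rab5, Rab6, Rab7, Rab8, Rab10, Rab11, Rab14, Rab18, Rab21 and Rab35), 9 tissue-restricted (the vesicle release Rabs Rab3, Rab26 and Rab27, RabX4, and 5 Rab9-like duplicates) and 11 others. Whether the genes called tissue-restricted are so in these pupae was not checked, and for the 5 Rab9-like duplicates the label is an assumption. The classes were chosen with earlier results of these data known, so the counts by class are a description only. Of the broadly used genes, 7 of 13 had a promoter IDR summit (53.8%, 25.1 to 80.8), and 0 of 9 tissue-restricted genes had one (upper bound 33.6%). Of the others, 1 of 11 had one (9.09%, 0.230 to 41.3), Rab39. The share of all protein-coding genes was 24.6%. That lies within the intervals of the tissue-restricted and other classes and just below that of the broadly used class. The 9 tissue-restricted genes include near-identical Rab9-like copies, at which the absence of a summit is uncertain (described below). In the pooled list the counts were 12 of 13 broadly used genes (92.3%), 2 of 9 tissue-restricted genes (22.2%) and 8 of 11 others (72.7%). Of all protein-coding genes, 47.0% had a pooled promoter summit. The median of the strongest pooled promoter signal was 164.2 over the 12 broadly used genes, 66.6 over the 2 tissue-restricted genes and 96.5 over the 8 others. The classes also differed in gene structure. Several TSSs were annotated for 38.5% of broadly used, 11.1% of tissue-restricted and 27.3% of other genes, and a divergent TSS within 1000 bp stood upstream of 76.9% of broadly used, 22.2% of tissue-restricted and 54.5% of other genes. Median gene length was 3032 bp for broadly used, 897 bp for tissue-restricted and 2114 bp for other genes. The part of these traits in the counts was not tested. Among the 4241 IDR peaks of highest signal, 1 broadly used gene had a promoter summit, Rab5, where 13.6% of all protein-coding genes had one. The 8483 strongest peaks of replicate 3 alone, that is without replicate 1, put a summit at 1 tissue-restricted gene, Rab26.

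**Figure D3:**
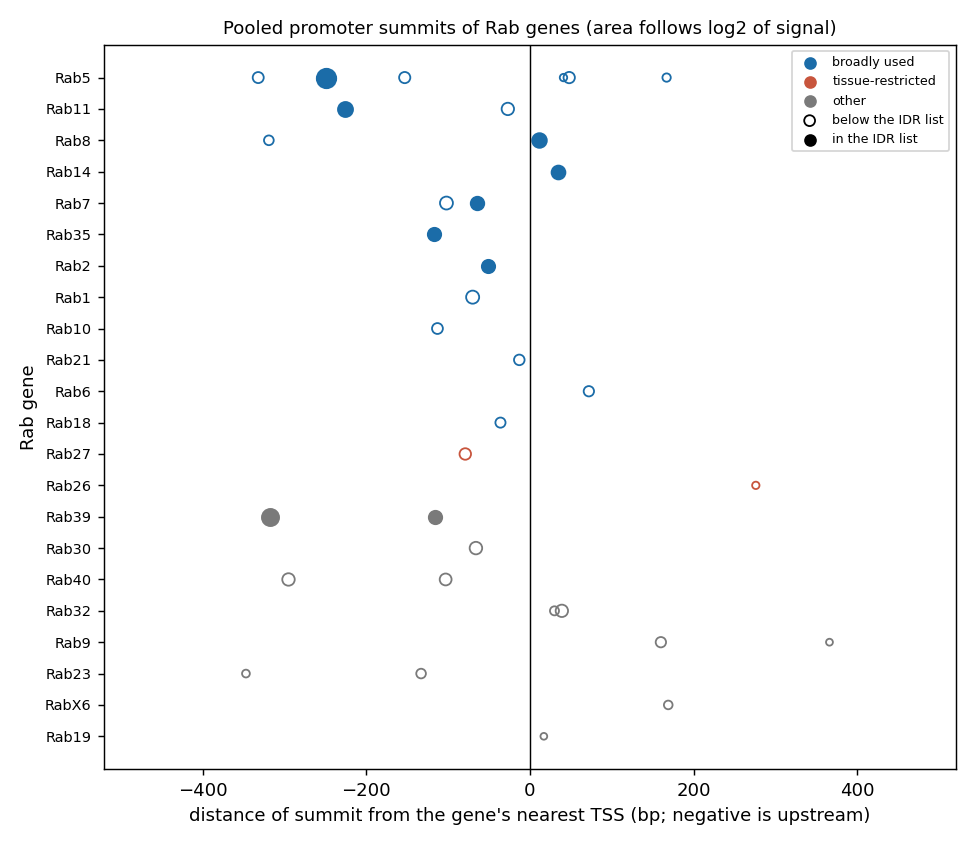
Distance of every pooled promoter summit of Rab genes from the nearest TSS of that gene (bp, negative is upstream), 1 row per gene; marker area follows log2 of the signal and filled markers are in the IDR list. Of the 9 filled markers, 7 lie upstream of the start, the exceptions being Rab8 and Rab14.

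A part of the tissue-restricted class could not be read well. Rab9D, Rab9Db, Rab9E and Rab9Fa lie on the X chromosome and are near-identical copies, with 98.1% to 99.2% identity between their coding sequences, whereas Rab9Fb shares 72.0% to 72.7% with them. Of the 50-base words within 500 bp of their starts, 58.6% occurred once in the genome at Rab9D, 49.2% at Rab9Db, 45.7% at Rab9E and 40.8% at Rab9Fa. The share was 99.3% at Rab9Fb, 79.4% at RabX2, and 100% at the other 27 members. How repeated sequence was handled in the alignment is not given in the sources used here, so the absence of a summit at these 4 copies is uncertain. Rab9Fb had no promoter summit in any list although nearly all of its words were unique.

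Most Rab summits lay upstream of the start, as they do at other genes. Upstream summits made up 7 of the 9 promoter IDR summits (77.8%). Their median position was -116 bp, in a range of -317 to 34 bp. Over all protein-coding genes the upstream share was 83.5% of 3916 gene and summit pairs and the median position -140 bp. The Rab median was -283 bp among the 4241 strongest IDR peaks, where only Rab5 (-249 bp) and the stronger Rab39 summit (-317 bp) were left. The median over all protein-coding genes was not computed for that cut.

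Rab genes often stood head to head with a neighbour. A divergent protein-coding TSS lay within 1000 bp upstream of the first start in 18 of 33 Rab genes (54.5%), against 35.2% of all protein-coding genes. It did so in 6 of the 8 Rab genes with a promoter IDR summit, against 59.2% of all genes with such a summit. The number of starts went with the calls in Rab genes much as elsewhere. Of Rab genes with 1 TSS, 4 of 24 had a promoter IDR summit (16.7%, against 18.6% of all such genes), and of those with 2 or more, 4 of 9 did (44.4%, against 41.0%). Each of the 5 chromosome arms 2L, 2R, 3L, 3R and X held Rab genes, 13 of them on X and 5 on each of the others.

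The DNA replication-related element, the TATCGATA word read by the factor DREF, was common at Rab promoters. It was present, on either strand, between 250 bp before and 50 bp after the first start of 11 of 33 Rab genes (33.3%), against 9.37% of all protein-coding genes. Of the 8 genes with a promoter IDR summit 5 held it (Rab2, Rab7, Rab8, Rab14 and Rab35), and of the other 25 members 6 did (Rab6, Rab19, Rab27, Rab30, Rab40 and RabX6). CGATA outside that word, the core read by the boundary protein BEAF-32, was found on either strand at 18 of 33 (54.5%, against 44.9%), and at all 8 genes with an IDR summit. The window is that of the first start, whereas the Rab5 IDR summit lies at an internal start. For neither word was the share in this window counted among all protein-coding genes with a promoter IDR summit. Under the summits themselves, within 50 bp, TATCGATA stood at 2 of 9 (22.2%, against 2.49% of 2852 promoter summits) and CGATA outside it at 5 of 9 (55.6%, against 15.7%). The Rab8 sequence shows both words, and the Rab5 and Rab39 sequences, from the strongest promoter summits, show none of the 8 words searched.

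The other words were counted in the same way. In the same promoter window GGTCACACT, a form of core promoter motif 1, was present at 1 of 33 (3.03%, against 6.05%), CACGTG at 1 (3.03%, against 4.24%), CAGCTG at 5 (15.2%, against 17.7%) and GAGAG at 4 (12.1%, against 29.8%), each on either strand. On the strand of the gene, TATAAA was present at 5 (15.2%, against 32.2%) and TCAGT at 15 (45.5%, against 36.3%). GGTCACACT and TCAGT overlap at the start of Rab14, where the printed sequence carries the first on the opposite strand. A match of letters is not a measured site.

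The genes that load, switch and read Rab proteins were listed beside the Rab genes, with earlier results of these data known. Of 58 genes for Rab regulators and effectors found in the annotation, 25 had a promoter IDR summit (43.1%, 30.2 to 56.8), and 45 had a pooled one (77.6%), against the 24.6% and 47.0% of all genes given above. All 4 genes that load and carry Rabs had an IDR summit: Gdi, the dissociation inhibitor that takes Rabs off membranes (187.9), Rep, the escort protein (206.8), and RabGGTa and RabGGTb, the prenyl transferase subunits (418.3 and 261.7). In replicate 1 these were 94.3 for Gdi, 132.0 for Rep, 249.2 for RabGGTa and 172.0 for RabGGTb, and in replicate 3 they were 88.6 for Gdi, 74.1 for Rep, 172.6 for RabGGTa and 88.9 for RabGGTb.

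By promoter IDR summit, the 3 strongest of these genes were listed here as a GEF, a GAP and an effector. Mon1, part of the GEF of Rab7, had a signal of 1555 at rank 489, with 872.0 in replicate 1 and 679.9 in replicate 3. TBC1d7, which carries the TBC domain of Rab GAPs, had 1297 at rank 688, with 751.9 in replicate 1 and 543.9 in replicate 3. Rbsn-5, an effector of Rab5, had 1196 at rank 802, with 658.7 in replicate 1 and 536.4 in replicate 3. These 3 promoter summits were below that of Rab5 and above that of every other Rab gene. By class, 4 of 8 genes of the TRAPP tethering and GEF complexes, 4 of 9 other GEF genes, 5 of 13 GAP genes and 8 of 24 effector genes had a promoter IDR summit. These are the classes of the list used here, and the activity of each product was not checked. Rab3-GEF, which acts on the vesicle release Rabs, had no promoter IDR summit. Ccz1, the partner of Mon1, had none either, but had a promoter summit in the pooled list, in replicate 1 (71.4) and in replicate 3 (46.8).

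**Figure D4:**
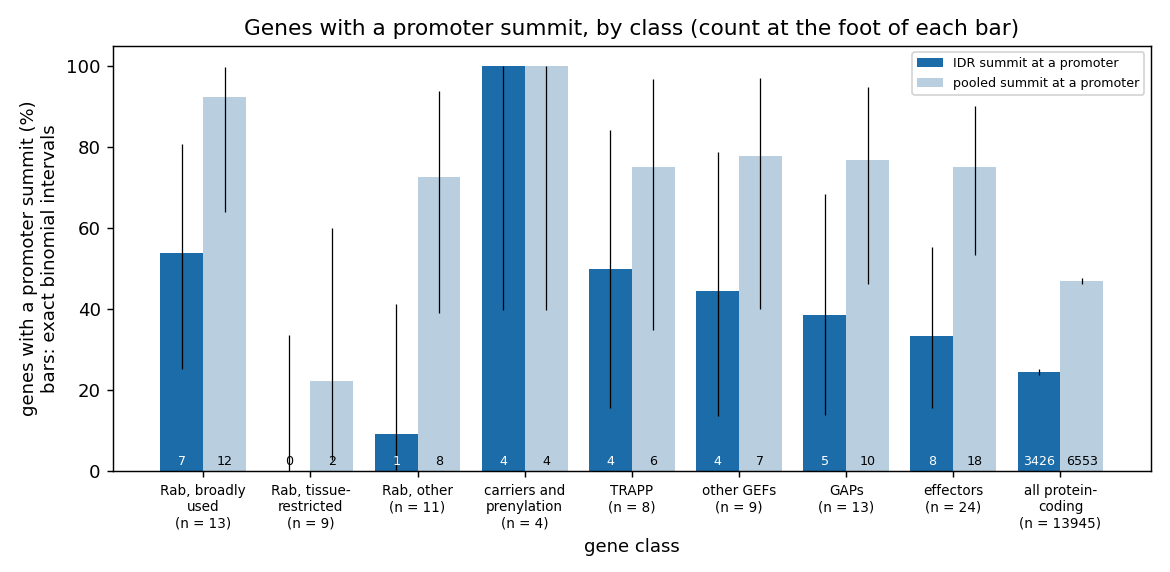
Share of genes with a promoter summit (%) in the IDR list (dark) and the pooled list (light) for the 3 Rab classes, 5 classes of Rab machinery and all protein-coding genes; lines are 95% exact binomial intervals and the count stands at the foot of each bar. Broadly used Rab genes are at 53.8% and tissue-restricted ones at 0 in the IDR list, beside 24.6% of all protein-coding genes. The classes were chosen with earlier results of these data known, and the tissue-restricted class includes Rab9-like copies whose reading is uncertain.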

How the data were processed

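Each deposited list gives the caller's signal per peak (column 7), as the authors deposited it on dm6. Per the descriptions deposited with the lists, each replicate list was made from its own alignment plus 1 undescribed input, the pooled list from both alignments plus 1 such input, and the IDR list from the 3 other lists. For the aligner, caller, IDR threshold and depth, nothing is given in these sources. No signal was changed, and 0 peaks lay off the 6 main arms.

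Genes and TSSs were taken from Ensembl release 115 (BDGP6, the same assembly as dm6), and sequence from RefSeq. Python 3.11.15, pandas 2.3.3, SciPy 1.17.1 and Biopython 1.88 were used, and the assignment of summits was tested on simulated summits. A replicate value is that of its summit within 100 bp. A summit counts for every gene with a TSS in the window.

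No test was made: there is 1 group, and genes are not replicates of a condition. The members, the classes and the list of regulators were chosen with earlier results of these data known. Rab32 was put among the other Rabs after the files were seen, since the annotation lists that gene under this symbol. Of 66 regulator symbols listed, 58 were in the annotation. By the rule for named genes, full values were given for members with a promoter IDR summit and for the strongest IDR summit elsewhere in a member. Other members were named with counts and ranges, regulators by class with the 3 strongest, and neighbours with a TSS within 500 bp of the summit. The Gdi group was singled out, and Rab3-GEF and Ccz1 named, after their values were seen. Alternatives were other windows, peak lists, TSS sets, member rules and each replicate alone.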

Additional observations from a re-analysis of the deposited data

How the results depend on the processing

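The 8 Rab genes with a promoter IDR summit fell to 2, Rab5 and Rab39, when only the 4241 IDR peaks of highest signal were used. The share of all protein-coding genes fell from 24.6% to 13.6%. In that setting broadly used genes with a promoter summit numbered 1, genes with an IDR summit elsewhere 2, and the median distance was -283 bp. With a window of 1000 bp the genes with an IDR summit elsewhere also numbered 2, because the summits of Rab14 and Rab35 then counted as promoter. The median distance was -90.5 bp with a window of 250 bp and likewise with the most upstream TSS only, where Rab5 dropped out. With the 8483 strongest peaks of each replicate alone, the count of Rab genes was 7 to 11, that of broadly used genes 5 to 7, of tissue-restricted genes 0 to 1, and the median distance -139 to -120 bp. Of all protein-coding genes, 24.3% had a promoter summit without replicate 3 and 24.8% without replicate 1. Of the 8 genes, 6 were shared without replicate 3 (Rab2 and Rab35 lost, Rab32 gained) and 7 without replicate 1 (Rab14 lost, Rab1, Rab26, Rab40 and RabX1 gained). Counting a summit only for its nearest TSS left 6 genes, without Rab2 and Rab7, and 18.5% of all protein-coding genes. Rab39 then stayed only through its weaker summit (166.6), since the stronger one (642.0) is nearer to the start of Pdp. The other 39 of 48 alternative values lay within 1.5 times the count or within the spread between replicates of 13.4 bp. Other member rules, the wider reading of the symbols and the family without the Rab9-like duplicates, were chosen after seeing the data. No paired analysis was possible because there is 1 group. Depth is unknown, so weak sites cannot be told from absent ones.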

Other observations

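At 2 Rab genes replicate 3 had a strong promoter summit that the pooled list did not hold. At RabX1 the summit lay at -53 bp with a signal of 163.6 and rank 3426 in replicate 3 (chr2R:23523478-23523853), while the nearest summit was 813 bp away in the pooled list and 1014 bp away in replicate 1. At Rab26, at -421 bp, the signal was 164.3 and the rank 3410 (chr3L:21321772-21322147), with the nearest pooled summit 2910 bp away and the nearest replicate 1 summit 2896 bp away. Such peaks were rare. Of the 3426 peaks of replicate 3 down to the RabX1 rank, 21 had no pooled summit within 500 bp (0.613%), and of the same number in replicate 1, 3 had none (0.0876%). The cause was not tested.

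Of the 58 regulators, 13 had an IDR summit inside the gene and over 500 bp from their starts (22.4%, against 10.9% of all protein-coding genes). Among them sky, a GAP of synaptic endosomes, had 4 such summits and spri, a GEF of Rab5, had 8. Both also had promoter IDR summits, and both were named after their values were seen. A longer gene has more room for summits away from its starts, and the lengths of the regulator genes were not compared. The list of regulators was chosen with earlier results of these data known.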
